A study of Homo sapiens with 8 samples.

Results

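The 9 genes described here are negative regulators of WNT signaling, taken by name from a table of 35940 gene symbols: AXIN1, AXIN2, NKD1, NKD2, RNF43, ZNRF3, NOTUM, APCDD1 and TNFRSF19. Each name had 1 row in the table, so all 9 were found. The cells were ESI017, an established human embryonic stem cell line, labelled wild type and as going through posterior neural fate differentiation. They were placed in N2B27, a serum-free neural medium, with 10 µM SB and 100 nM LDN, inhibitors that every group received, and recombinant human WNT3A protein at 300 ng/mL was added after 34 h. RNA was taken at 34 h (no time with WNT3A), 42 h (8 h with it), 50 h (16 h) and 72 h (38 h), with 2 libraries per time point, called replicate 1 and replicate 2. The replicate number is also the batch number in the labels, and the second replicate is described as independent. All groups come from 1 cell line, and a series of libraries without WNT3A is not analysed here, so the time in culture and the time with WNT3A cannot be told apart.

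In the canonical WNT pathway, a WNT protein binds a Frizzled receptor and an LRP co-receptor at the cell surface. This stops a cytoplasmic destruction complex from degrading beta-catenin, which then enters the nucleus and drives transcription with TCF and LEF factors. Cells limit this signal at several levels: inside the cell (AXIN1, AXIN2, NKD1, NKD2), at the membrane by removing receptors (RNF43, ZNRF3), outside the cell by disabling the ligand (NOTUM), and through membrane proteins described as dampening the pathway (APCDD1, TNFRSF19). Several of these genes are themselves induced by beta-catenin, which makes them feedback genes, and WNT signaling posteriorizes the early neural plate.

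Values are TPM, the share of each transcript in a library corrected for its length, so levels can be set beside each other between genes. Between libraries they compare as shares, so a level also depends on the other genes in the library. Read numbers cannot be recovered from TPM, so the depth is unknown and no counting interval is given. Changes are differences in log2(TPM + 1) with their standard error, which understates the fold change of genes with low levels. A change was called at a limma adjusted p under 0.05, Benjamini-Hochberg adjusted over 14908 tested genes. Labels place the cells as pluripotent stem cells in neural differentiation. All 6 pluripotency markers on a list were at 1 TPM or more in both libraries at 34, 42 and 50 h and 5 of 6 at 72 h. Their summed level went from 3415 to 3440 TPM at 34 h down to 1863 to 1950 TPM at 72 h. The 5 neural progenitor markers summed to 361 to 378 TPM at 34 h and 674 to 717 TPM at 72 h. SOX2 is on both the pluripotency and the neural progenitor list, so the sums are not separate. The mesoderm markers summed to at most 2.20 TPM in any library, with MSGN1 listed at 0 throughout. The 4 endoderm markers summed, in TPM, to 1.40 to 1.87, 5.83 to 6.05, 2.48 to 2.81 and 6.35 to 7.21 in time order. SOX17 of these was listed at 0 throughout, and at each time point 1 of the 4 reached 1 TPM in both libraries. The part of these cells in the results was not tested. Replicate libraries had Spearman correlations of 0.980 to 0.984 over the tested genes.

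Most of the feedback genes were higher after WNT3A was added. None was called lower against 34 h at 42, 50 or 72 h, when 0.792%, 2.74% and 11.3% of all tested genes were. With shares this small, few or no lowered calls among 9 genes lie near the background. RNF43, TNFRSF19 and NOTUM, under 1 TPM at 34 h, had little room to fall. At 42 h against 34 h, 5 of the 9 were called raised (AXIN2, NKD1, RNF43, APCDD1 and TNFRSF19), against 1.78% of all tested genes. At 50 h the same comparison called 6 raised, the 5 and ZNRF3, whose 50 h call was lost under 12 of the alternative settings, against 3.52% of all genes, and at 72 h it called those 6 again, against 12.7%. From 34 h, the median log2 change of the 9 genes was 1.88 after 8 h with WNT3A, 2.15 after 16 h and 1.85 after 38 h. Over all tested genes the medians were 0.0097, 0.045 and 0.061. At 42 and 50 h the median of the 9 is the value of TNFRSF19, which was under 1 TPM in both 34 h libraries. No median without the genes under 1 TPM at 34 h is given. These comparisons share the 34 h libraries. The members were chosen with earlier results of these data known, so the counts and medians are a description. All 9 passed the filter of 1 TPM in at least 2 libraries, but RNF43, TNFRSF19 and NOTUM were under 1 TPM in both 34 h libraries, so these 3 entered the test through their later values and their direction carries little information of its own. Of the other 6 members, 3 were called raised at 42 h, 4 at 50 h and 4 at 72 h. The shares above cover all tested genes, also those under 1 TPM at 34 h, so they are not matched to these 6. A level in bulk RNA can differ through the number of cells that express a gene or through the RNA per cell, and these cannot be told apart.

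**Figure D1:**
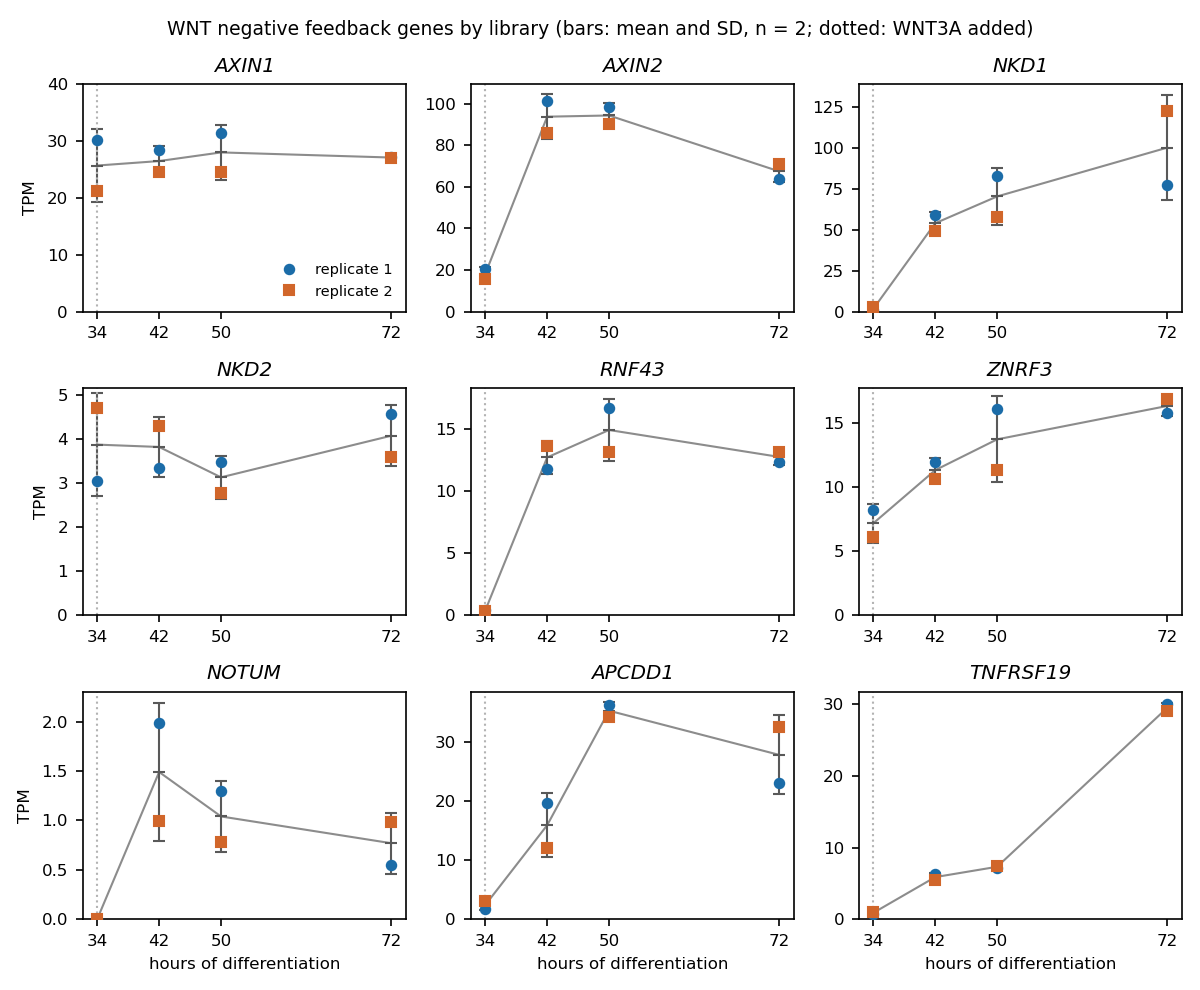
TPM of each of the 9 genes (vertical axes, separate scale per gene, starting at 0) against hours of differentiation, with 1 point per library, the mean and the SD of the 2 libraries. AXIN1 and NKD2 stay level, AXIN2 and RNF43 are near their highest level at 42 h, and TNFRSF19 makes its largest step in TPM between 50 and 72 h.

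The 2 scaffold proteins of the destruction complex had the highest levels of the 9 genes at 34 h. AXIN1 is the constitutive scaffold that holds APC, GSK3 and beta-catenin together, and AXIN2 is its closely related paralogue and a standard reporter of WNT signaling. AXIN1 (chromosome 16, 287440 to 352673, minus strand, GRCh38) had 30.2 and 21.2 TPM in replicates 1 and 2 at 34 h, 28.4 and 24.6 at 42 h, 31.5 and 24.6 at 50 h, then 27.2 and 27.1 at 72 h. The libraries of all 4 time points overlapped. Its changes from 34 h were 0.06 ± 0.19 (SE), 0.13 ± 0.19 and 0.09 ± 0.19 at the 3 later time points, with limma adjusted p-values of 0.953, 0.757 and 0.755. AXIN2 (chromosome 17, 65528563 to 65561647, minus strand) had 20.6 and 15.7 TPM at 34 h, 101 and 85.9 at 42 h, 98.5 and 90.0 at 50 h, then 63.9 and 70.9 at 72 h. Every later library was above both 34 h libraries, and the 42 h level was already 99.4% of the highest mean. The rises from 34 h were 2.32 ± 0.15, 2.33 ± 0.15 and 1.85 ± 0.15 at 42, 50 and 72 h (limma adjusted p 0.000231, 0.000111 and 9.691e-05).

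AXIN2 was lower at 72 h than at its plateau in all libraries, but this difference sat at the edge of the test. The change from 42 h to 72 h was -0.47 ± 0.15, with -0.66 within replicate 1 and -0.27 within replicate 2 (limma adjusted p 0.0712). It passed after TMM scaling (adjusted p 0.0404), after quantile normalization (0.0489) and when either 34 h library, replicate 1 or 2, was left out (0.0495 and 0.0488), so 1 gene was called raised and 1 lowered among the 9 under each of these settings. Leaving out a 34 h library changed the estimated spread and not the difference itself. Leaving out a library of the compared time points did not give a call, and over all alternatives the adjusted p lay between 0.0404 and 0.279. From 50 h to 72 h the change was -0.48 ± 0.15 (adjusted p 0.0992).

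AXIN2 moved from below AXIN1 to well above it. The ratio of AXIN2 to AXIN1 TPM was 0.680 and 0.738 in the 34 h libraries, 3.57 and 3.49 at 42 h, 3.13 and 3.66 at 50 h, then 2.35 and 2.62 at 72 h. AXIN2 changed more than AXIN1 by 2.26 ± 0.13 at 42 h, 2.20 ± 0.13 at 50 h and 1.75 ± 0.13 at 72 h (SE; limma adjusted p 0.000898, 0.000499 and 0.000314, from the log ratio of the pair fitted as a row beside all genes). The 95% interval of the difference at 72 h was 1.45 to 2.06, above 0. This form of the test was chosen after the data were seen, because the planned form put the noise of the reference gene into every row and gave p-values that were too small.

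NKD1 and NKD2, the naked cuticle homologues, bind Dishevelled, the adaptor between receptor and destruction complex, and dampen the signal there. NKD1 (chromosome 16, 50548330 to 50649249, plus strand) had 0.859 and 2.59 TPM at 34 h, 58.8 and 49.3 at 42 h, 82.9 and 58.0 at 50 h, then 77.7 and 123 at 72 h. All 6 later libraries were above both 34 h libraries, and the spread between replicates was wide at 34 h and at 72 h. The rises from 34 h were 4.41 ± 0.33, 4.77 ± 0.33 and 5.26 ± 0.33 in time order (limma adjusted p 0.00048, 0.00016 and 2.699e-05), which placed NKD1 at rank 4, 5 and 5 of the 14908 tested genes by change. The replicates gave 5.01 and 3.81 at 42 h. At 72 h NKD1 had the highest mean level of the 9, 100.3 ± 32.0 TPM (SD, n = 2), but its differences from 42 h (0.85 ± 0.33, adjusted p 0.128) and from 50 h (0.49 ± 0.33, 0.436) were not called.

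NKD2 (chromosome 5, 1008829 to 1038943, plus strand) had 3.05 and 4.69 TPM at 34 h, 3.34 and 4.30 at 42 h, 3.48 and 2.78 at 50 h, then 4.56 and 3.58 at 72 h. No time point stood apart from 34 h, with changes of -0.0025 ± 0.24, -0.22 ± 0.24 and 0.07 ± 0.24 (limma adjusted p 1, 0.659 and 0.857). The level of NKD1 was 0.281 and 0.552 times that of NKD2 at 34 h and between 11.5 and 34.3 times in the later libraries. NKD1 rose more than NKD2 by 4.41 ± 0.35, 4.99 ± 0.35 and 5.18 ± 0.35 at 42, 50 and 72 h (limma adjusted p 0.00227, 0.000869 and 0.000222, log ratio beside all genes).

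**Figure D2:**
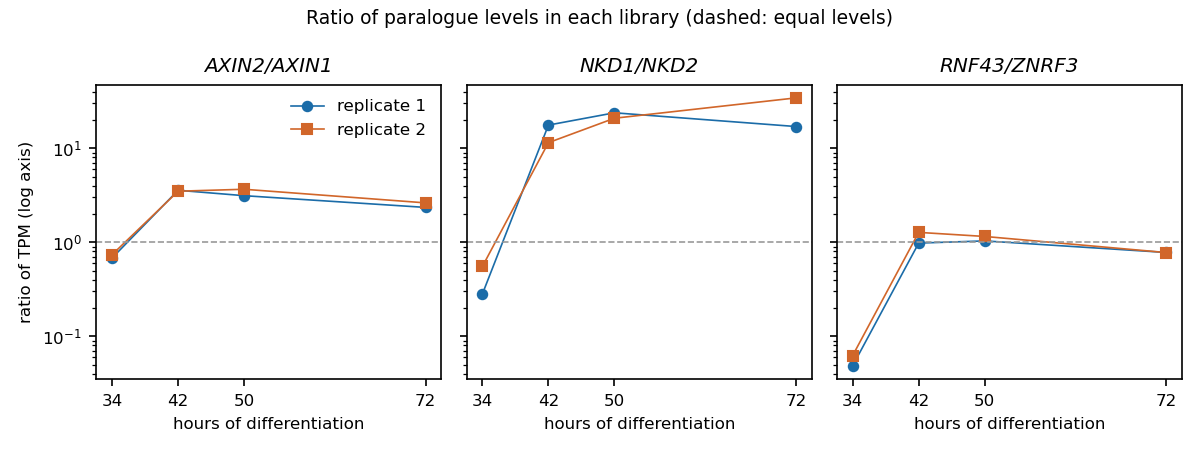
Ratio of the TPM of 3 pairs of related genes in each library (log axis) against hours of differentiation, with 1 line per replicate and the dashed line at equal levels. AXIN2/AXIN1 and NKD1/NKD2 cross from below 1 at 34 h to above 1 in all later libraries, while RNF43/ZNRF3 climbs from near 0.05 to near 1.

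RNF43 and ZNRF3 are related membrane E3 ubiquitin ligases that mark Frizzled receptors for removal from the surface, and R-spondins acting through LGR receptors block them. RNF43 (chromosome 17, 58352500 to 58417595, minus strand) had 0.402 and 0.382 TPM at 34 h, 11.8 and 13.6 at 42 h, 16.7 and 13.1 at 50 h, then 12.3 and 13.2 at 72 h. The 42, 50 and 72 h libraries overlapped, and all were above both 34 h libraries. Its rises from 34 h were 3.29 ± 0.17, 3.50 ± 0.17 and 3.30 ± 0.17, given without a test because both 34 h libraries were under the minimum of 1 TPM. In the annotation its span overlaps SUPT4H1 on the same strand, which had 134 to 144 TPM; how reads on shared sequence were split is not given in the sources used here.

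ZNRF3 (chromosome 22, 28883592 to 29057487, plus strand) was present before WNT3A and moved less. It had 8.26 and 6.13 TPM at 34 h, 12.0 and 10.7 at 42 h, 16.1 and 11.4 at 50 h, then 15.8 and 16.9 at 72 h. Every later library was above both 34 h libraries. The change from 34 h was 0.60 ± 0.20 at 42 h (limma adjusted p 0.216), 0.84 ± 0.20 at 50 h (0.0467) and 1.09 ± 0.20 at 72 h (0.00579). The 50 h call was lost under TMM scaling (0.0513), quantile normalization (0.0521), without the filter on low values (0.107), with the compared time points alone (0.166), with Ensembl rows apart (0.058) and without replicate 1 or replicate 2 of the 34, 42 and 72 h libraries or replicate 1 at 50 h (0.0688 to 0.248). The 72 h call held under each alternative that was run.

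The level of RNF43 was 0.0486 and 0.0623 times that of ZNRF3 at 34 h, 0.980 and 1.27 times at 42 h, 1.03 and 1.15 times at 50 h, and 0.778 and 0.777 times at 72 h. The ranges of the 2 genes were apart at 34 h and at 72 h and overlapped at 42 h and 50 h. RNF43 rose more than ZNRF3 by 2.69 ± 0.17, 2.66 ± 0.17 and 2.21 ± 0.17 at the 3 later time points, given as a description because RNF43 passed the filter only through its later libraries. With a pseudocount of 0.1 these differences were 4.03, 4.0 and 3.51, since the pseudocount compresses the low 34 h level of RNF43.

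NOTUM is a secreted enzyme that removes the lipid of WNT proteins and so inactivates them. NOTUM (chromosome 17, 81952507 to 81961840, minus strand) was listed at 0 in both 34 h libraries and had 1.99 and 0.994 TPM at 42 h, 1.29 and 0.785 at 50 h, then 0.55 and 0.988 at 72 h. It was above 0 in all 6 later libraries, at the lowest level of the 9 genes at every time point. No fold is given against a listed 0. No test against 34 h is given, because it entered the analysis through its later libraries.

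APCDD1 is a membrane glycoprotein reported to bind WNT and LRP proteins and to inhibit signaling. APCDD1 (chromosome 18, 10454628 to 10489948, plus strand) had 1.75 and 3.0 TPM at 34 h, 19.7 and 12.0 at 42 h, 36.2 and 34.2 at 50 h, then 23.0 and 32.5 at 72 h. It reached 45.0% of its highest mean at 42 h, where AXIN2 and RNF43 had reached 99.4% and 85.2% of theirs. The rise from 34 h was 2.31 ± 0.27, 3.45 ± 0.27 and 3.10 ± 0.27 at 42, 50 and 72 h (limma adjusted p 0.00352, 0.00028 and 0.000153), and the 42 h call was lost with the compared time points alone (0.0521). Both 50 h libraries were above both 42 h libraries, by 1.14 ± 0.27, but this step was not called (adjusted p 0.229). None of the 9 genes was called between 42 and 50 h, when 0.0939% of all genes were called. There 1 of the 9, APCDD1, and 1394 of the 14908 tested genes had an unadjusted p under 0.05 by limma, which are similar shares.

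TNFRSF19, also known as TROY, is a receptor of the tumour necrosis factor family and a known beta-catenin target. TNFRSF19 (chromosome 13, 23570370 to 23676104, plus strand) had 0.758 and 0.983 TPM at 34 h, 6.31 and 5.42 at 42 h, 7.14 and 7.48 at 50 h, then 30.1 and 29 at 72 h. Its level was 1.88 ± 0.16 higher at 42 h than at 34 h, given without a test because both 34 h libraries were under 1 TPM. Between 50 h and 72 h it rose by 1.88 ± 0.16 (limma adjusted p 0.000534), from 24.7% of its highest mean. These differences are equal only with the pseudocount of 1: with 0.1 they were 2.63 and 2.00, and the means differed 6.74-fold and 4.04-fold. It was the member called between 42 h and 72 h (2.16 ± 0.16, adjusted p 0.000129, against 7.71% of all genes called raised) and between 50 h and 72 h (against 2.92%). The summed neural progenitor markers were 441 to 493 TPM at 50 h and 674 to 717 TPM at 72 h over the same interval. The 3 neural crest markers, 2 of them at 1 TPM or more in both libraries, summed to 17.0 to 19.6 TPM at 50 h and 47.6 to 53.0 TPM at 72 h, and the 4 neuron markers, 3 of them at that level, to 247 to 312 TPM and 182 to 215 TPM. No marker of these lists was at 0 in both libraries of either time point, and their part in the rise of TNFRSF19 was not tested.

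**Figure D3:**
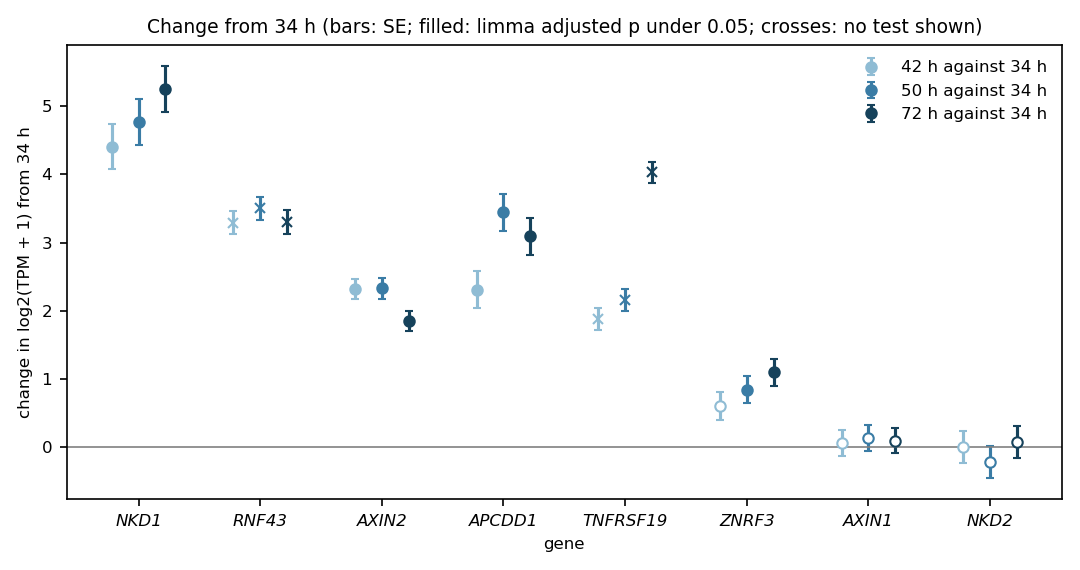
Change in log2(TPM + 1) from 34 h (vertical axis) at 42, 50 and 72 h for 8 genes, ordered by their 42 h change, with standard errors; filled points had a limma adjusted p under 0.05, and crosses mark RNF43 and TNFRSF19, shown without a test because both 34 h libraries were under 1 TPM. NOTUM is left out because it was listed at 0 at 34 h. NKD1 changed by 4.41 to 5.26, and AXIN1 and NKD2 stayed within 0.22 of 0.

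The order of levels among the 9 genes changed with time. At 34 h it ran from AXIN1 (25.7 ± 6.35 TPM, SD, n = 2) through AXIN2, ZNRF3, NKD2, APCDD1, NKD1, TNFRSF19 and RNF43 to NOTUM at 0, and the ranges of the neighbours APCDD1 and NKD1 and of NKD1 and TNFRSF19 overlapped. At 42 h AXIN2 (93.69 ± 10.96 TPM) and NKD1 (54.07 ± 6.75 TPM) led, followed by AXIN1, APCDD1, RNF43, ZNRF3, TNFRSF19, NKD2 and NOTUM. The ranges of APCDD1, RNF43 and ZNRF3 overlapped between neighbours there. At 50 h AXIN2 (94.3 ± 6.02 TPM) and NKD1 (70.4 ± 17.5 TPM) led again and APCDD1 had passed AXIN1. At 72 h NKD1 was above AXIN2 (67.4 ± 5.02 TPM) in both libraries, and TNFRSF19, APCDD1 and AXIN1 lay between 23.0 and 32.5 TPM with overlapping ranges of neighbours. Summed over the 9 genes, the level was 65.9 and 54.7 TPM at 34 h and between 207 and 317 TPM in the later libraries. AXIN1 made up 45.9% and 38.8% of this sum at 34 h and between 8.53% and 11.9% later.

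**Figure D4:**
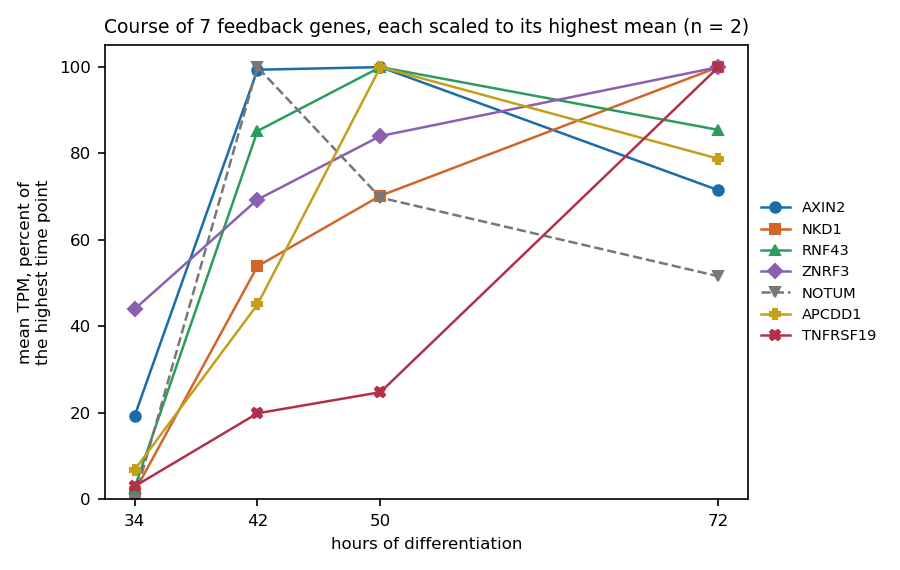
Mean TPM of 7 genes as a percent of the highest time point of each (vertical axis) against hours of differentiation, n = 2 per point; AXIN1 and NKD2, which had the smallest changes from 34 h, are left out. At 42 h AXIN2 is at 99.4% and RNF43 at 85.2% of their highest means, and TNFRSF19 is at 19.9%.

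The members are listed here by the time of their highest mean, as a description. NOTUM was highest at 42 h. AXIN1, AXIN2, RNF43 and APCDD1 were highest at 50 h, with AXIN1 nearly level throughout. NKD1, NKD2, ZNRF3 and TNFRSF19 were highest at 72 h, with no called change of NKD2. No member was called between 42 and 50 h, and only TNFRSF19 between 50 and 72 h. Most of these peaks are therefore not set apart by a test. Over the 8 libraries the log2 levels of AXIN2, NKD1 and RNF43 had Pearson correlations of 0.921 to 0.977 with each other, and AXIN1 and NKD2 had -0.481. These points share the 4 time points and the libraries.

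Among 10850 genes with a mean of at least 5 TPM, those whose levels over the 8 libraries were most like AXIN2 were TRIB2 (Pearson r 0.995), GAD1 (0.990) and FBXL13 (0.986). For RNF43 they were GBX2 (0.997), SP5 (0.996) and TMEM132C (0.995), for NKD1 NTF3 (0.996), NRBP1 (0.990) and GBX2 (0.985), and for TNFRSF19 SEMA5A (0.996), MRPS6 (0.995) and CD82 (0.989). For ZNRF3 they were DCLRE1B, AHDC1 and ZNF219 (0.989 to 0.990), for APCDD1 TAF1A, COL4A1 and ADIPOR2 (0.982 to 0.993), and for NOTUM NTN1, TDRKH and SP6 (0.953 to 0.960). NKD2 was most like RABGEF1, KRBOX4 and KLHDC10 (0.912 to 0.980). With 4 time points, many genes share such a course.

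The upstream sequence of 2 members with higher later levels and of 1 with no called change is shown because the pathway acts on genes through TCF and LEF factors, which recognise the letters CTTTGA or CTTTGT on either strand. RefSeq sequence of GRCh38.p14 was matched by symbol for AXIN1, NKD2, RNF43, APCDD1 and TNFRSF19 of the 9 members. The 250 bases before the RefSeq start were searched in these 5, and those of RNF43, TNFRSF19 and AXIN1 are printed 5′ to 3′ in lower case up to the first annotated transcript start, with matches in capitals.
RNF43 (chr17:58417596-58417784, minus strand, 189 of 250 bases): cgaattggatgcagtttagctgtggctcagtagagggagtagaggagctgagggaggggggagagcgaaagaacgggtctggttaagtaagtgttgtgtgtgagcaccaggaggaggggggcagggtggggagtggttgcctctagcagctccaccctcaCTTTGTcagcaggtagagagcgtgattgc
TNFRSF19 (chr13:23570162-23570369, plus strand, 208 of 250 bases): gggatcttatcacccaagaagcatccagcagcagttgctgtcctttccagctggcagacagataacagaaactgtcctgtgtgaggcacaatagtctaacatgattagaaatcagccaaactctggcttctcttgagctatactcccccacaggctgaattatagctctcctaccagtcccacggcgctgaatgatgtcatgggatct
AXIN1 (chr16:352724-352973, minus strand, 250 bases): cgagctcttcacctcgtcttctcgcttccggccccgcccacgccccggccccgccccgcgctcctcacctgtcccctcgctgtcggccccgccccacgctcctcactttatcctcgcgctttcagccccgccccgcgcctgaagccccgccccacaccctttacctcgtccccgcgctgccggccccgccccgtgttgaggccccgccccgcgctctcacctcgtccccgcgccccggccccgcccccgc
RNF43 held 1 match, CTTTGT, with its first base 90 bases before the RefSeq start, which lies downstream of the end of the printed stretch. TNFRSF19, APCDD1, AXIN1 and NKD2 held no match in this window, so 1 of 5 had one, beside 22.9% of 27305 windows of the same length. CTTTGA was in 11.4% of all windows and CTTTGT in 13.7%, and the 2 differ in their last letter, so they cannot match at the same position of a strand. The windows also differed in base composition: GC was 56.0% for RNF43 and 49.6% for TNFRSF19, both of which rose, and 77.6% for AXIN1, 75.6% for NKD2 and 77.2% for APCDD1, of which APCDD1 rose. The median of all windows was 58.0%.

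The rest of the pathway was followed through 5 lists with 78 genes, of which 70 were tested. The lists, like the members, were chosen with earlier results of these data known. The median changes of the lists from 34 h lay between -0.04 and 0.32 on the log2 scale at 42 h and between -0.05 and 0.58 at 72 h, beside 0.0097 and 0.061 over all tested genes. Of the 20 tested genes of the destruction complex and the cytoplasmic core, 1 was called raised and 1 lowered at 42 h, 1 raised at 50 h, and 4 raised and 2 lowered at 72 h. For these and the following lists the shares of all tested genes called were, in time order, 1.78%, 3.52% and 12.7% raised with 0.792%, 2.74% and 11.3% lowered, so the 72 h counts of this list lie near the background. In these lists FZD1, FZD10, RSPO1, DKK1, DKK4 and SP5 were under 1 TPM in both 34 h libraries and entered the test through later values, so a raised call of theirs against 34 h carries little information of its own. The raised gene at 42 and 50 h was DACT1, another Dishevelled-binding protein, from 2.81 to 33.9 TPM between 34 and 42 h (3.20 ± 0.17, limma adjusted p 9.157e-05), with 39.0 TPM at 50 h. APC2, a relative of APC, stood at 3.55 TPM at 34 h but at 9.97 TPM by 72 h (1.27 ± 0.19, adjusted p 0.00267). The kinase gene CSNK1E was lower at 42 h, from 155 to 119 TPM (-0.37 ± 0.08, limma adjusted p 0.0471), and stood at 155 TPM at 72 h. Its 42 h call sat at the edge of 0.05 and is not reported under the alternative settings.

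Of the receptors, co-receptors and R-spondin genes, on which RNF43 and ZNRF3 act or depend, 16 of 19 were tested. At 42 h 2 were raised (FZD1, FZD10) and 3 lowered (FZD5, FZD8, LGR4), at 50 h 3 raised and 2 lowered, and at 72 h 6 raised and 1 lowered, FZD5. FZD10 went from 0.184 to 4.92 TPM between 34 and 42 h, reaching 9.46 TPM by 72 h, and FZD1 from 0.752 to 3.73 and 11.0 TPM. LGR4, the R-spondin receptor, fell from 51.4 to 33.3 TPM between 34 and 42 h (-0.62 ± 0.13, limma adjusted p 0.0492). That call sat at the edge of 0.05 and is not reported under the alternative settings. LGR4 then stood at 93.0 TPM at 72 h (0.84 ± 0.13 above 34 h, limma adjusted p 0.00263).

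The other extracellular and membrane antagonists moved in both directions. Of 18 tested, 4 were raised and 3 lowered at 42 h, and 5 raised and 3 lowered at 50 h. At 72 h 5 were raised and 4 lowered. The 42 h calls of FRZB and SFRP2 against 34 h sat at the edge of 0.05 (limma adjusted p 0.04685 and 0.04988). SFRP2, a secreted Frizzled-related protein, fell from 282 to 130 TPM between 34 and 72 h (-1.11 ± 0.08, limma adjusted p 3.707e-05). FRZB, of the same family, rose from 3.86 to 19.4 TPM over the same interval (2.07 ± 0.16, adjusted p 8.393e-05). DKK4, a secreted LRP antagonist, had 4.84 TPM at 42 h against 0.0503 TPM before WNT3A and 0.406 TPM at 50 h, and it was listed at 0 at 72 h. It reached 1 TPM at 42 h alone, so no test of its differences is given.

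Of 7 tested genes for WNT lipid attachment, secretion and glypicans, 1 was raised and 1 lowered at 42 h and at 50 h, and 2 raised and 2 lowered at 72 h. WLS, the carrier that brings WNT to the surface, rose from 2.79 to 44.7 TPM between 34 and 42 h, reaching 126 TPM by 72 h (3.60 ± 0.21 and 5.08 ± 0.21, limma adjusted p 0.000168 and 5.123e-06). GPC4, a glypican, had 168, 88.6 and 32.0 TPM at 34, 42 and 72 h, both later levels being called lower (-0.91 ± 0.10 and -2.35 ± 0.10, adjusted p 0.00292 and 5.944e-06), and GPC3 had 44.8, 42.6 and 26.9 TPM at these times, lower at 72 h by the same test (adjusted p 0.00393). Of the 9 nuclear readers of beta-catenin with SP5, 3 were raised (LEF1, TCF7, SP5) and 1 lowered (TCF7L2) at 42 h, 3 raised and 2 lowered (TCF7L1, TCF7L2) at 50 h, and 5 raised and 1 lowered at 72 h. LEF1 and TCF7, with TCF7L1, were called lower at 72 h than at 42 h (by -0.58 ± 0.15 for LEF1 and -0.97 ± 0.22 for TCF7, limma adjusted p 0.04 and 0.021), when 8.09% of all tested genes were called lowered. LEF1 had 8.86, 50.6, 48.3 and 33.7 TPM at the 4 time points, beside 18.1, 93.7, 94.3 and 67.4 TPM of AXIN2.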

How the data were processed

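The deposited table gives TPM for Ensembl genes, as the authors made it, with 1 column per library. Salmon 1.9.0 and GRCh38 are named, with no role, in the submitters' processing notes; the annotation, any filter and the step from transcripts to genes are not given in the sources used here. Rows with the same symbol were summed. Gene positions come from GENCODE release 29 (GRCh38), matched by Ensembl identifier.

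A gene was tested if 2 or more of the 8 libraries had 1 TPM or more. Tests used log2(TPM + 1) and limma 3.58.1 in R 4.3.3, with 1 mean per time point over all 8 libraries, a variance trend with the mean and two-sided p-values adjusted by Benjamini-Hochberg over 14908 genes. With 2 libraries in each group an exact permutation p cannot go below 0.333, so none is given. The difference between 2 genes' changes was fitted on their log ratio, in the planned form with the second gene taken from every gene, and in the reported form as a row beside all genes without the trend. The TMM alternative rescales by a trimmed mean of log ratios, computed without weights. The scripts were tested on simulated data.

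The members and lists were chosen with earlier results of these data known. Genes named outside the 9 were the 3 of each pathway list with the lowest p in an F-test over time, and for each member except AXIN1, whose most similar genes are not reported here, the 3 with the highest Pearson correlation; members of list calls and overlapping genes are named beside counts.

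The labels give the replicate number as a batch, so it pairs libraries. Deviations of same-numbered libraries correlated at 0.0949, 0.195 and 0.142 among 34, 42 and 50 h, and at -0.0445, -0.0779 and -0.104 between 72 h and these.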

Additional observations from a re-analysis of the deposited data

How the results depend on the processing

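The counts of feedback genes called were 5, 6 and 6 at 42, 50 and 72 h against 34 h. Over the alternatives (pseudocount 0.1, no filter, a mean of at least 5 TPM, TMM, quantile normalization, compared time points alone, Ensembl rows apart, replicate block, each library left out) they ranged from 4 to 6, 5 to 7 and 6 to 7. With the replicate block they were 5, 6 and 6, and the block changed no call of a member in any of the 6 comparisons. For 72 h against 42 h the count was 1, and 2 after TMM scaling, 2 after quantile normalization and 1 to 2 with a library left out; the second gene was AXIN2, called lower. Of the values of single members under the alternatives, 820 kept their call, 13 lost it (ZNRF3 at 50 h in 12 and APCDD1 at 42 h in 1) and 7 gained it (AXIN2 in 4, and NOTUM in 3, with a pseudocount of 0.1 against a listed 0 and so of little weight). The differences of changes of AXIN2 and AXIN1 and of NKD1 and NKD2, in the reported log ratio form, kept direction and call under the same alternatives, added after the data were seen, with adjusted p-values up to 0.0204 and 0.0245; NKD2 has no value with a mean of at least 5 TPM. The planned form of that test gave an adjusted p of 2.551e-52 for NKD1 against NKD2 at 72 h under the reported settings, too small for this design, and was not used in the text. Over all tested genes, 384, 933 and 3578 were called at 42, 50 and 72 h against 34 h, and as few as 160, 412 and 1840 under an alternative. The same counts were 14, 2355 and 1093 for 50 against 42 h, 72 against 42 h and 72 against 50 h, with lowest values of 0, 979 and 319 and, for 50 against 42 h, 7 with the replicate block and up to 24 with a mean of at least 5 TPM. For 50 against 42 h, 9 of 14 were raised, and 9 of 19 after TMM scaling; against 34 h, TMM scaling turned 525 raised and 408 lowered into 460 and 506 at 50 h, and 1900 and 1678 into 1551 and 2005 at 72 h. Precision is limited by 2 libraries per time point and an unknown depth.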
